A study of Mus musculus with 11 samples.

Results

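The 45 genes described here encode proteins of the large subunit of the cytosolic ribosome. They were taken by a fixed list of Ensembl identifiers from a table of 22019 genes. The table gives counts of ribosome footprints, the stretches of mRNA that ribosomes protect from RNase I, in mouse liver. Fragments of about 30 nt come from single ribosomes (monosomes), and fragments of about 60 nt come from pairs of ribosomes packed against each other (disomes). All animals were male and wild type (WT) and carried no other treatment; they received either the control diet, labelled Chow Diet, or a diet high in fat and sugar, labelled High Fat High Sugar (HFHS). The sources used here give neither age nor time on the diet. There were 3 monosome libraries per diet, 3 chow disome libraries and 2 HFHS disome libraries, and HFHS disome replicate 2 was not analysed here. Libraries are named by the sample barcode in their column names. Where values of single libraries follow each other, chow values stand in the order of barcodes ATCGT, then AGCTA, then CGTAA, and HFHS values in the order CTAGA, then GATCA (monosomes alone), then GCATA. Separate animals behind the replicates are not stated in the labels, and the p-values therefore capture the spread of these libraries, part of which may be technical.

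The large subunit joins amino acids at its peptidyl transferase centre, passes the growing chain through an exit tunnel and recruits elongation factors through a flexible stalk. Its proteins are short, are needed in near equal numbers and are made from mRNAs that are heavily translated in growing cells. These mRNAs begin with a terminal oligopyrimidine (TOP) tract, an uninterrupted run of C and T bases in the gene, through which mTORC1 signalling and the RNA-binding protein LARP1 adjust their translation to nutrients. A disome footprint arises when a ribosome closes up on one that is slow or paused ahead of it, so the level of disomes relative to monosomes on an mRNA reports how often ribosomes on it are closely stacked. No mRNA level was measured in these libraries, and a change in mRNA amount and a change in ribosomes per mRNA cannot be told apart. In whole liver, fewer cells of a type and less RNA per cell cannot be told apart either.

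All 45 symbols were found in the RefSeq gene table for mouse (GRCm38.p6), spread over 17 chromosomes. The RefSeq promoter table for the same build held 39 start sites of 33 members. The 60 bases around the annotated start are given for 6 members on which the results below turn, 30 before the start and 30 after it, 5′ to 3′ on the gene's strand, with the longest run of C and T in capitals. In Rplp2, Rpl38 and Rpl14 this run spans the start, as a tract at the head of the mRNA would. In Rpl31 (bases 13 to 25 of the window) and Rpl13 (15 to 24) it lies wholly before the annotated start, and in Rplp0 (42 to 48) wholly after it, so there the capitals do not mark a tract at the first base. In chow liver, Rplp2, Rpl38 and Rpl31 had high disome levels relative to monosomes, and Rpl13, Rpl14 and Rplp0 had low ones.
Rplp2, chr7:141447621-141447680, plus strand: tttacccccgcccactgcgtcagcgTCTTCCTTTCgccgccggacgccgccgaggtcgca
Rpl38, chr11:114668550-114668609, plus strand: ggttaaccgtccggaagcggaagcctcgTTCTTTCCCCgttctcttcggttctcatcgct
Rpl31, chr1:39367821-39367880, plus strand: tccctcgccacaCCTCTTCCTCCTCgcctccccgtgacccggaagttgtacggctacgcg
Rpl13, chr8:123102320-123102379, plus strand: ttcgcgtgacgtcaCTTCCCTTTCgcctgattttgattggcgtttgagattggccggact
Rpl14, chr9:120571487-120571546, plus strand: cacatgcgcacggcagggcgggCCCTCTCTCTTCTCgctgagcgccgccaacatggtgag
Rplp0, chr5:115559437-115559496, plus strand: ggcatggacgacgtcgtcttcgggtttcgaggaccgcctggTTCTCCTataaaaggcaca

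A run of at least 8 pyrimidines lay in this 60-base window, on the sense strand, at 22 of the 39 member start sites (56.4%), against 22.9% of all 32851 start sites in the table. At 11 of them (28.2%) such a run reached or spanned the start itself, against 5.32% of all. The hexamer CTTTCC, made only of pyrimidines and so able to overlap the run, stood in the same window at 25.6% of member start sites and 2.89% of all. CCGGAA, the core of sites for ETS-family factors, was found on either strand of the 300-base promoter at 48.7% of member start sites and 14.9% of all. TATAAA, searched in the same way, was found at 7.69% and 13.6%. The runs in Rplp2 and Rpl13 both have 10 bases, and that of Rpl14 has 14, so run length did not divide the 6 windows shown into those of high and low disome level. These matches describe letters, and use of the sites was not tested.

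Library totals ran from 795145 to 1612324 counts for monosomes and from 147212 to 279331 for disomes. In chow monosome library AGCTA, 30 genes were picked that lay above 20 CPM and above 8 times the highest other monosome library. They held 4.15% of its counts, against at most 0.0376% in other monosome libraries, a contrast that the picking itself fixes. Disome libraries were not used to pick them. These genes held 3.97% of counts in disome library AGCTA and at most 0.0163% in the other disome libraries. No large-subunit gene was among them. The 45 members held 0.878% ± 0.0198 (SD, n = 3) of all counts in chow monosomes and 0.69% ± 0.201 (n = 3) in HFHS monosomes. In disomes their share was 1.22% ± 0.0286 (n = 3) on chow and 1.14% ± 0.103 (n = 2) on HFHS. The wide SD of the HFHS monosomes came from library GATCA, where the share was 0.476%, against 0.874% in CTAGA and 0.721% in GCATA. The HFHS disome ratios, the pair test and the diet comparison in monosomes all include GATCA, and their main values are also given without it. The files do not pair Ensembl identifiers with names, and the member names come with the list that defined them, so hepatocyte markers, markers of other liver cell types and other gene lists of the translation machinery were not analysed here.

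A few members were nearly uncounted. Over all 11 libraries, Rpl10 had 6 monosome counts and 1 disome count, Rpl35 had 47 and 2, and Rpl9 had 40 and 22. Rpl13a had 281 monosome counts but 1 disome count. RefSeq names 197 pseudogenes after 38 of the 45 members, up to 24 for a single gene (Rpl31). Among other members described below as high in chow disomes, Rpl21 has 15, Rpl23a 13, Rpl19 12, Rpl30 10 and Rpl35a 6. Others of that kind have few: Rpl7 and Rpl27 3 each, Rpl38 and Rpl5 2 each, Rplp2 1 and Rpl41 0. Of those low in chow disomes, Rpl13 has 6, and Rpl13a, Rplp0, Rpl14 and Rpl22 have 1 each. Whether copies shift the disome-to-monosome ratio was not tested. The treatment of reads that fit several near-identical copies is not given in the sources used here. Levels of every member are therefore uncertain to the extent that copies took its reads. Rpl10, Rpl35, Rpl9 and Rpl13a have 6, 1, 9 and 1 named pseudogenes, and what made their counts low was not tested. Their levels are uncertain also because they rest on few counts, for Rpl13a in disomes. In what follows, levels are TMM-scaled CPM (counts relative to the library's scaled total) within the libraries of a comparison, and no level is compared between genes, since coding lengths were not used here.

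In chow liver, large-subunit genes ranged from strongly disome-rich to disome-poor. The stalk protein Rplp2, the ribosomal proteins Rpl21 and Rpl38 and the bridge protein Rpl19 had the highest disome levels relative to monosomes, and Rpl13a and Rpl13 the lowest. Of the 42 members that passed the filter on low counts, 15 were higher in disomes (35.7%) where 21.6% of the 4713 genes tested were, and 5 were lower (11.9%) where 23.3% of all were, at an adjusted p below 0.05 (edgeR quasi-likelihood F-test). The share called in either direction, 47.6%, was near that of all genes, 44.9%. The median log2 ratio of disomes to monosomes was 0.29 over the 42 members and -0.01 over all genes tested. Log2 ratios and standard errors (SE) below come from this fit.

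**Figure D1:**
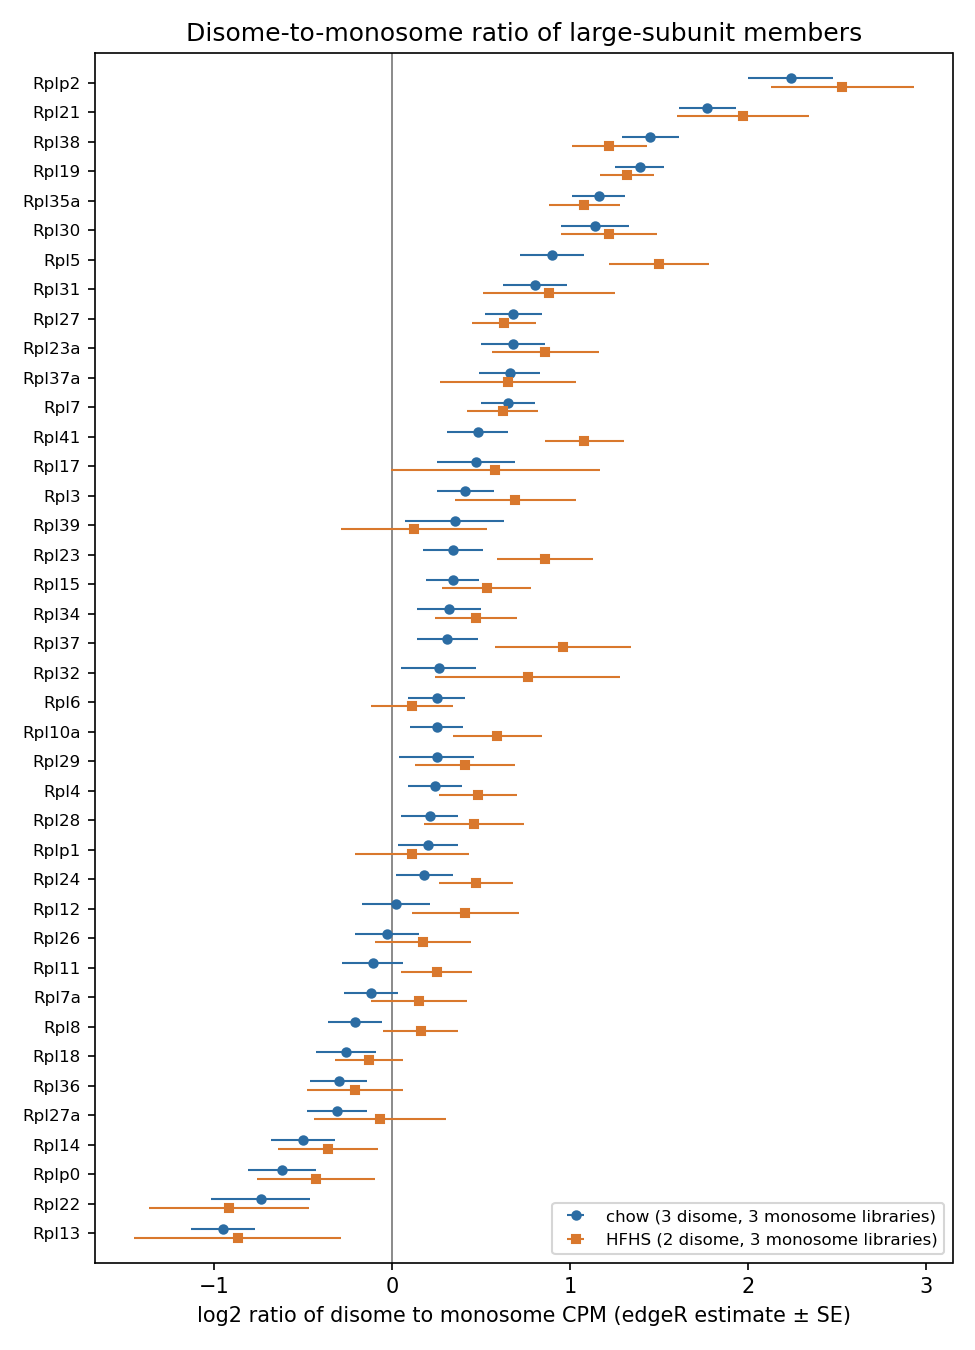
Log2 ratio of disome to monosome level (x axis; edgeR estimate, bars ± SE) for 40 members tested in both diets (y axis, ordered by the chow value); circles are chow (3 disome and 3 monosome libraries) and squares HFHS (2 and 3). Chow values run from -0.95 for Rpl13 to 2.24 for Rplp2, and the HFHS values follow nearly the same order.

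The stalk that recruits elongation factors is built on Rplp0, which carries dimers of the small acidic proteins Rplp1 and Rplp2, with Rpl12 at its base. Its members parted widely. Rplp2 (ENSMUSG00000025508) had 31.6, 59 and 42.7 CPM in the chow monosome libraries, and 175, 258 and 195 CPM in the chow disome libraries. Every disome library lay far above every monosome library, with a log2 ratio of 2.24 ± 0.24 (adjusted p = 5.39e-10, edgeR). Rplp0 (ENSMUSG00000067274) went the other way, with 199, 274 and 209 CPM in monosomes and 154, 165 and 131 CPM in disomes. Its groups did not overlap and its log2 ratio was -0.62 ± 0.19 (adjusted p = 0.00853, edgeR); with both AGCTA libraries left out it was -0.58 and no longer passed (adjusted p = 0.0538; over all 15 alternatives the adjusted p ran from 0.000658 to 0.0538). Rplp1 (ENSMUSG00000007892), the partner of Rplp2, had a ratio of 0.2 ± 0.17 and Rpl12 (ENSMUSG00000038900) one of 0.02 ± 0.19, and neither passed the threshold.

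Rpl5 and Rpl11 enter the subunit together with the 5S rRNA, and outside the ribosome the same particle binds Mdm2, the p53 ubiquitin ligase. Rpl5 (ENSMUSG00000058558) had 141, 139 and 117 CPM in the chow monosome libraries and 252, 272 and 223 CPM in disomes. All 3 disome values exceeded all monosome values, and the log2 ratio was 0.9 ± 0.18 (adjusted p = 9.51e-05, edgeR). Rpl11 (ENSMUSG00000059291) had 221, 233 and 263 CPM in monosomes and 196, 258 and 223 CPM in disomes, which overlap, with a log2 ratio of -0.11 ± 0.17.

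Rpl19, Rpl24 and Rpl41 form bridges from the large to the small subunit. Rpl19 (ENSMUSG00000017404) had 389, 423 and 444 CPM in the chow monosome libraries and 1100.4, 1202 and 994 CPM in disomes. Its log2 ratio of 1.39 ± 0.14 (adjusted p = 2.8e-10, edgeR) had the smallest SE among the members. Rpl41 (ENSMUSG00000093674), the shortest protein of the ribosome, had 335, 589.6 and 532 CPM in monosomes and 631, 708 and 693 CPM in disomes, a ratio of 0.48 ± 0.17 (adjusted p = 0.0181, edgeR). It lost its call under 7 of 15 alternatives (adjusted p from 2.69e-05 to 0.253), among them without monosome library ATCGT (0.23, adjusted p = 0.253), without disome library AGCTA (0.42, 0.0567) and without disome library CGTAA (0.43, 0.0763), while Rpl24 (ENSMUSG00000098274) at 0.18 ± 0.16 did not pass.

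Around the rim of the tunnel exit, where factors meet the emerging chain, Rpl31 (ENSMUSG00000073702) had a log2 ratio of 0.8 ± 0.18 and Rpl23a (ENSMUSG00000058546), the docking site of the signal recognition particle, one of 0.68 ± 0.18 (adjusted p = 0.000352 and 0.00269, edgeR). The disome libraries of Rpl23a were spread from 234 CPM in CGTAA to 444 CPM in AGCTA. Its call was lost with both AGCTA libraries left out (0.47, adjusted p = 0.091) and in a fit of all 11 libraries (0.63, adjusted p = 0.0588); over 15 alternatives the adjusted p ran from 1.87e-05 to 0.091. Rpl26, also at the rim, was at -0.03 ± 0.18. None of the tunnel wall proteins passed, with Rpl4 at 0.24, Rpl17 at 0.47 and Rpl39 at 0.35. On the peptidyl transferase side, Rpl3 (ENSMUSG00000060036) passed at 0.41 ± 0.16 (adjusted p = 0.0318, edgeR) and Rpl8 stood at -0.21 ± 0.15 without passing. The call of Rpl3 was lost under 10 of 15 alternatives (adjusted p from 0.00624 to 0.547): with any monosome library left out (ATCGT 0.41, AGCTA 0.33, CGTAA 0.33), without disome library ATCGT (0.16) and without disome library CGTAA (0.43). Rpl10a, in the L1 stalk that guides spent tRNA out, was at 0.25 ± 0.15, again without passing.

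Among the 24 other proteins tested, 8 were higher and 4 lower in chow disomes. Rpl21 (ENSMUSG00000041453) had 134, 117 and 147 CPM in the chow monosome libraries and 461, 458 and 442 CPM in disomes, the tightest disome values among the members called higher, with a log2 ratio of 1.77 ± 0.16 (adjusted p = 8.12e-12, edgeR). Rpl38 (ENSMUSG00000057322), whose loss in mice alters the translation of Hox mRNAs in the embryo, had 164, 168 and 183 CPM in monosomes and 482, 551 and 396 CPM in disomes, a log2 ratio of 1.45 ± 0.16 (adjusted p = 7.66e-10, edgeR). Neither gene showed any overlap between the classes. Rpl35a (ENSMUSG00000060636), mutated in some families with Diamond-Blackfan anaemia, followed at 1.16 ± 0.15, and Rpl30 (ENSMUSG00000058600) at 1.14 ± 0.19. Rpl27 (0.68), Rpl37a (0.66) and Rpl7 (0.65) were also called. Rpl37a missed the threshold with both AGCTA libraries left out (0.48, adjusted p = 0.0758; range over 15 alternatives 5.54e-05 to 0.0758).

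The disome-poor members included Rpl13 (ENSMUSG00000000740), with 348, 337 and 272 CPM in the chow monosome libraries and 188, 165 and 145 CPM in disomes. Every disome value lay below every monosome value, and the log2 ratio was -0.95 ± 0.18 (adjusted p = 2.86e-05, edgeR). Rpl13a (ENSMUSG00000074129), which on release from the ribosome joins a complex that silences inflammatory mRNAs, had 38.7, 44.9 and 64.6 CPM in monosomes and no disome count in any chow library. Against a floor of 3 counts over the 3 disome libraries, its disome level was at least 10.8-fold lower. Rpl13a passed the filter on low counts through its monosome libraries alone, so its call is not independent of the filter. Rpl22 (ENSMUSG00000028936), an RNA-binding protein that the ribosome can do without, had a ratio of -0.74 ± 0.28, and Rpl14 (ENSMUSG00000025794) one of -0.5 ± 0.18 (adjusted p = 0.0307 and 0.0254, edgeR). Both of these calls were lost under 4 alternatives, mostly with ratios of similar size. With both AGCTA libraries left out the ratios were -0.8 and -0.4 (adjusted p = 0.0651 and 0.175), and without monosome library AGCTA -0.69 and -0.4 (0.0532 and 0.103). Without disome library CGTAA they were -0.42 and -0.46 (0.304 and 0.0776), and with DESeq2 -0.75 and -0.5 (0.0922 and 0.0822). Over their alternatives the adjusted p ran from 0.00658 to 0.304 for Rpl22 and from 0.00435 to 0.175 for Rpl14. The 22 tested members that did not pass lay between -0.31 (Rpl27a) and 0.47 (Rpl17). Of the 20 calls, 12 held under every alternative run in which the gene was tested, 10 of them higher in disomes (Rplp2, Rpl21, Rpl38, Rpl19, Rpl35a, Rpl30, Rpl5, Rpl31, Rpl27 and Rpl7) and 2 lower (Rpl13 and Rpl13a).

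**Figure D2:**
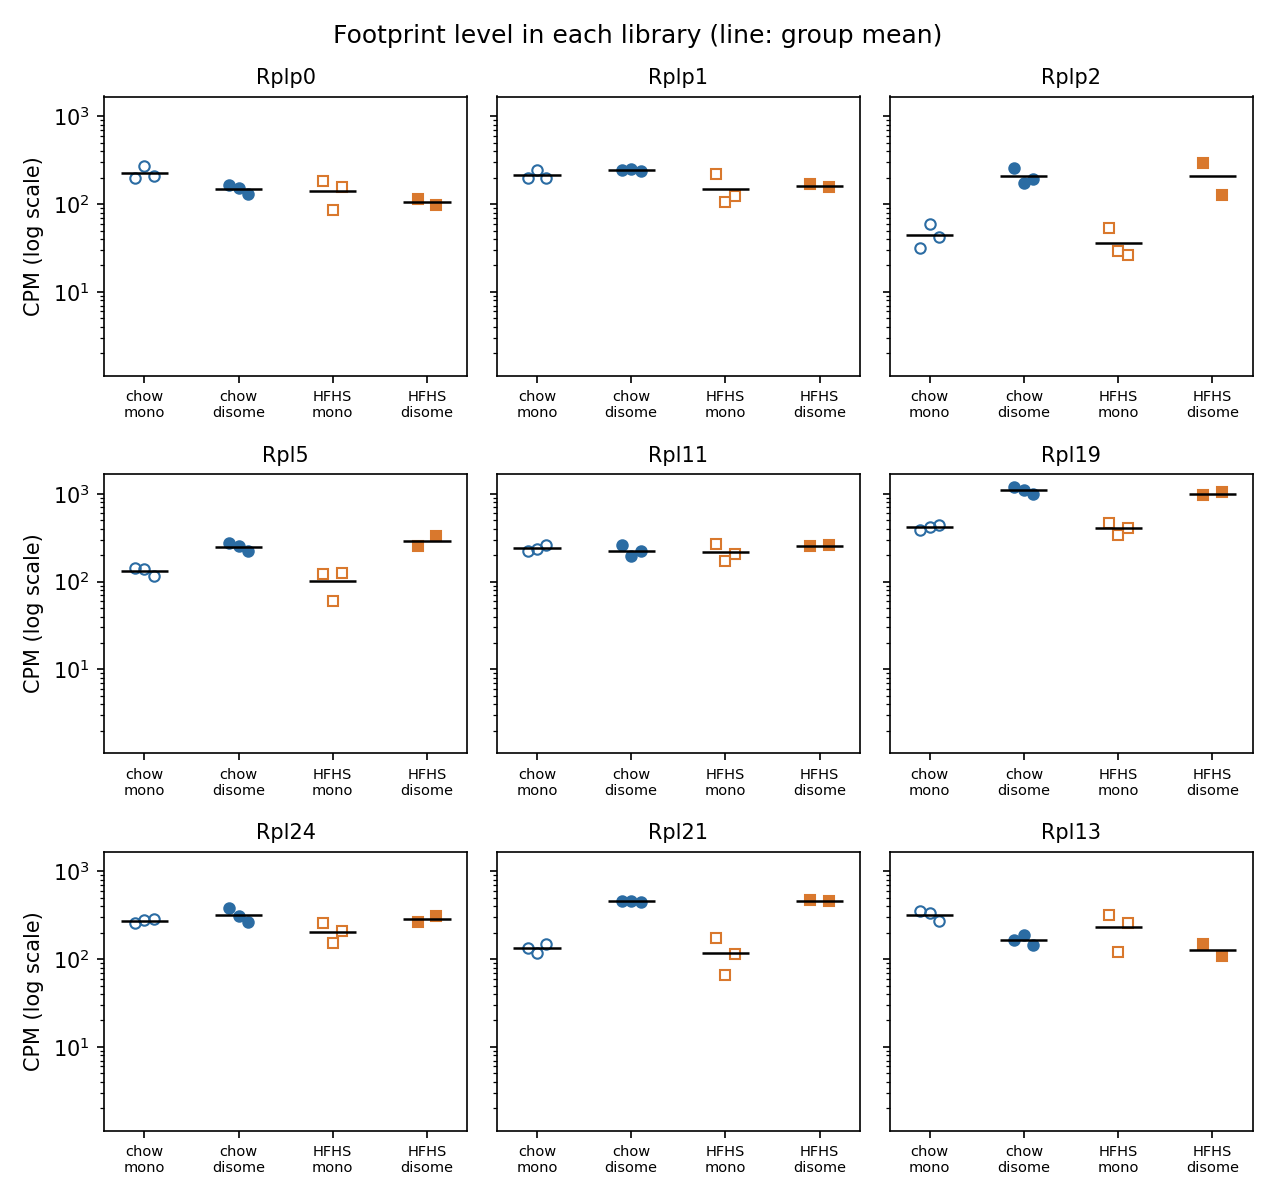
TMM-scaled CPM (y axis, log scale) of 9 members in each library, by diet and footprint class; open symbols are monosomes, filled symbols disomes, circles chow, squares HFHS, and lines group means, with each diet scaled in its own fit. Rplp2, Rpl5, Rpl19 and Rpl21 are higher in every disome library than in any monosome library of the same diet, while Rplp1 and Rpl11 overlap and Rpl13 is lower in chow disomes.

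The same ratio in HFHS liver gave a similar ranking, with Rplp2 and Rpl21 at the top, followed by the sparsely counted Rpl9 and by Rpl5. Of 43 members tested, 13 were higher in disomes (30.2%), where 11.5% of the 7437 genes tested were, and 1 was lower, where 13.6% of all were. In either direction the shares were 32.6% and 25.1%. Rpl9, among the 13, passed the filter on low counts only through its disome libraries, with 6 and 5 counts. Rpl13a, the 1 called lower, passed it only through its monosome libraries. Neither call is independent of the filter. The median was 0.53 over the members and -0.07 over all genes; without monosome library GATCA the members' median was 0.32 and 18 members were called, 4 of them lower. Rplp2 had 52.9, 29.6 and 26 CPM in the HFHS monosome libraries, and 289.7 and 127 CPM in the disome libraries. Both disome values exceeded all monosome values, although they lay far apart (SD 115 CPM), and the log2 ratio was 2.53 ± 0.4 (adjusted p = 0.00168, edgeR). Rpl19, with 467, 338 and 402 CPM in monosomes and 966 and 1041 CPM in disomes, had a log2 ratio of 1.32 ± 0.15 (adjusted p = 1.08e-07, edgeR). Rpl38 at 1.22 ± 0.21 and Rpl35a at 1.08 ± 0.2 also passed, and these 4 genes passed under all alternatives run. Without monosome library GATCA their ratios were 2.43 for Rplp2, 1.22 for Rpl19, 1.07 for Rpl38 and 0.93 for Rpl35a.

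The other HFHS calls were lost when 1 disome library was left out. Such a fit holds a single disome library, which is assumed to vary as the monosome libraries do, so a lost call there says little of the gene. Under the 11 alternatives that kept both disome libraries, 10 of the 14 calls held wherever the gene was tested. Rpl13a, among the 10, was not tested at a minimum count of 50. Rpl21 had 172, 65.2 and 114 CPM in the monosome libraries and 471 and 455 CPM in disomes, a log2 ratio of 1.97 ± 0.37 (adjusted p = 0.0104, edgeR). It was 1.93 without disome library CTAGA and 1.98 without GCATA, with adjusted p = 0.165 and 0.14; over 13 alternatives the adjusted p ran from 5.5e-29 to 0.165. Without GATCA it was 1.71 (adjusted p = 1.37e-05, edgeR). Rpl5, with 122, 60 and 126 CPM in monosomes and 257 and 328 CPM in disomes, had a ratio of 1.5 ± 0.28 and missed the threshold without GCATA (1.29, adjusted p = 0.0852). Rpl30 (1.22) and Rpl41 (1.08) missed it without CTAGA (0.95 and 0.8, adjusted p = 0.153 and 0.0995). Rpl23 (0.86) missed it without CTAGA and without GCATA (0.86 and 0.81). So did Rpl9 (1.71, on 6 and 5 HFHS disome counts) and Rpl13a, the only member called lower, which had 0 and 4.1 CPM in disomes. The call of Rpl9 was also lost with no filter on low counts and with the barcode as a block. Rpl7 (0.62) and Rpl27 (0.63) were called with all libraries; Rpl7 (0.53 and 0.67) missed the threshold without CTAGA and without GCATA, Rpl27 (0.32) without CTAGA, and Rpl7 also without monosome library GATCA (0.44, adjusted p = 0.0726). With DESeq2, Rpl7, Rpl9 and Rpl27 missed the threshold (adjusted p = 0.0947, 0.0555 and 0.0554). Without 1 disome library at a time, 5 members (without CTAGA) and 7 (without GCATA) were called higher.

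The ratios of the 42 members tested in both diets correlated across genes with Pearson r = 0.94 and Spearman rho = 0.92, and 38 had the same sign in both. Without Rpl13a, 41 members gave 0.95 and 0.91. Without GATCA the 42 members again gave 0.94 and 0.92. Over all 4701 genes tested in both diets the values were 0.83 and 0.85. The diets share no library, but members share whatever their sequences and the footprint classes have in common, and genes are not independent replicates. In all, 12 members (28.6%) were called in both diets, each in the same direction, a share near the 27.3% of all genes tested in both. The 12 include Rpl13a, which passed the filter in both diets through its monosome libraries alone. Its shared direction is therefore not independent of the filter. Rpl5, Rpl41, Rpl23 and Rpl37 had the HFHS ratio furthest above the chow ratio among members with adequate counts; the test of that difference is given below.

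Members of the same structural group were also compared within each library, by the log2 of the ratio of their counts, which needs no scaling between libraries. There were 17 pairs in 6 structural groups with at least 5 counts in every library, a comparison added after the values were seen. An exact two-sided permutation test moved the disome label among libraries within each diet (200 arrangements, smallest p 0.005), with Benjamini-Hochberg adjustment over the 17 pairs. In 9 pairs the 5 disome libraries did not overlap the 6 monosome libraries, each at the smallest p (adjusted p = 0.00944, exact permutation test). Pairs of other genes were not tested, so whether 9 of 17 is unusual is not known. In chow, 44.9% of all genes tested were called between the classes. The pairs share members and restate the ratios above, so they are not separate results. Without GATCA the same 9 pairs did not overlap (120 arrangements, adjusted p = 0.0315, exact permutation test), and no pair's difference moved by more than 0.13. This test moves the class label freely across barcodes. Taken barcode by barcode, over the 5 barcodes found in both classes, all 9 pairs differed the same way in 5 of 5. Swapping the classes within barcodes gives 32 arrangements and cannot go below p = 0.0625 in a two-sided exact permutation test, which all 9 reached.

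**Figure D3:**
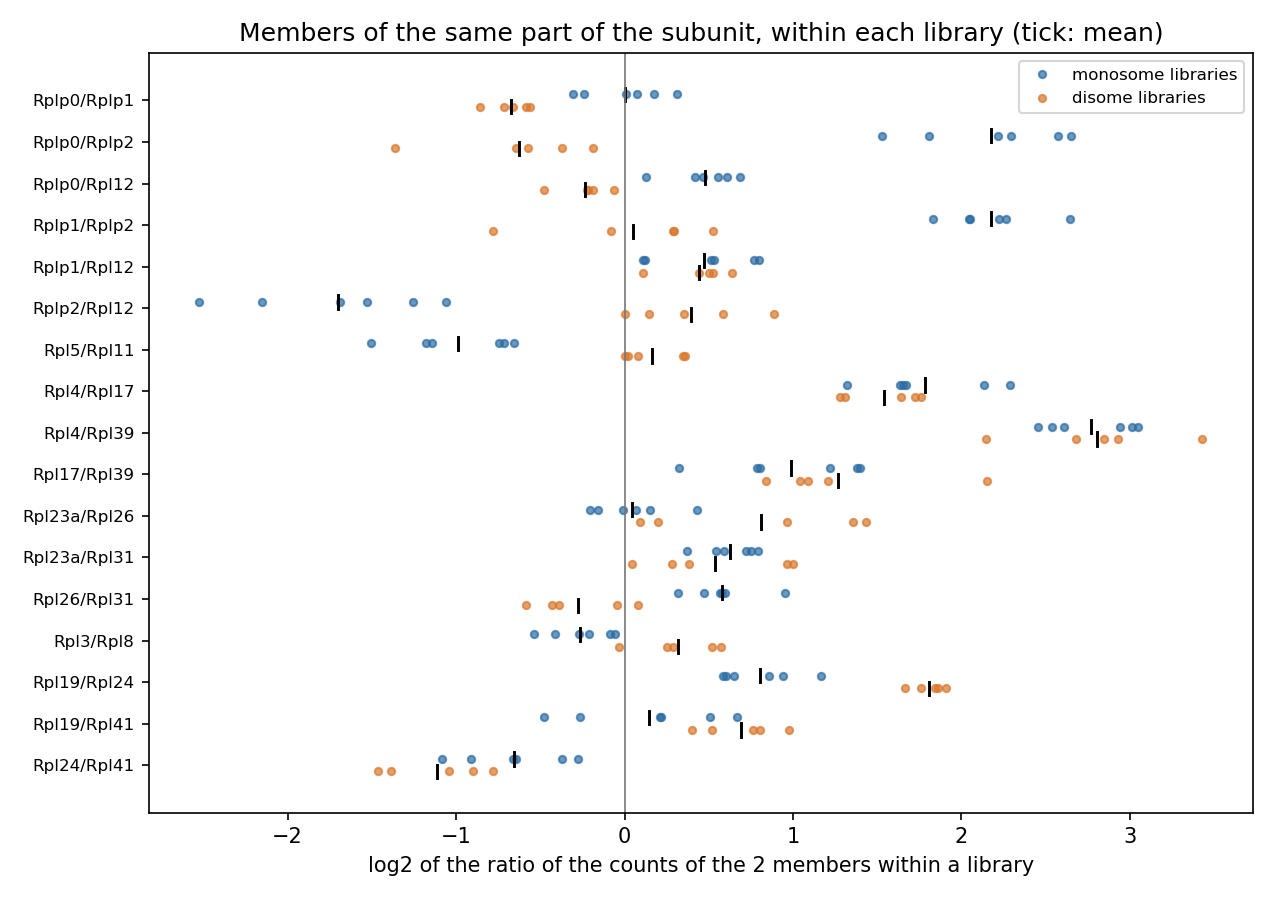
Log2 of the ratio of counts of 2 members within a library (x axis) for 17 pairs of the same structural group (y axis); blue points are the 6 monosome libraries, orange points the 5 disome libraries, and ticks their means. In the pairs with Rplp2 and in Rpl5/Rpl11 and Rpl19/Rpl24 the points of the classes separate, while Rplp1/Rpl12 and the tunnel wall pairs overlap.

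The stalk gave the widest separation. The log2 of Rplp0 over Rplp2 was 2.18 ± 0.44 (SD, n = 6) in monosome libraries, from 1.53 to 2.65, and -0.63 ± 0.45 (n = 5) in disome libraries, from -1.36 to -0.19. The difference of -2.81 ± 0.268 (SE) is a 6.99-fold change in the balance of these transcripts between the footprint classes. Rplp1 over Rplp2 differed by -2.13 ± 0.255 and Rplp2 over Rpl12 by 2.1 ± 0.275. Rplp0 also fell against Rplp1, by 0.68, and against Rpl12, by 0.71. Rplp1 over Rpl12 differed by -0.03 ± 0.152 (adjusted p = 0.925, exact permutation test), so the pairs that separated all contained Rplp2 or Rplp0.

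In the 5S particle, Rpl5 over Rpl11 was -0.99 ± 0.34 (SD, n = 6) in monosomes and 0.16 ± 0.18 (n = 5) in disomes, a 2.22-fold change. Rpl19 over Rpl24 went from 0.8 ± 0.23 to 1.81 ± 0.1, a difference of 1.01 ± 0.104 (SE). Rpl26 over Rpl31 differed by -0.85 ± 0.152 and Rpl3 over Rpl8 by 0.58 ± 0.132. The pairs Rpl23a over Rpl26 (0.76 ± 0.298, adjusted p = 0.051), Rpl19 over Rpl41 (0.55 ± 0.207, adjusted p = 0.0567) and Rpl24 over Rpl41 (-0.46 ± 0.183, adjusted p = 0.0541) overlapped and missed the threshold in the exact permutation test. The 3 tunnel wall pairs, Rpl4 over Rpl17, Rpl4 over Rpl39 and Rpl17 over Rpl39, differed by -0.24 ± 0.179, 0.04 ± 0.233 and 0.28 ± 0.287, and Rpl23a over Rpl31 by -0.09 ± 0.202.

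The diet comparison in monosomes asked whether ribosomes on these mRNAs became more or fewer in HFHS liver. No member passed the threshold among 42 tested, where 4.65% of the 6754 genes tested were called, 3.02% higher and 1.63% lower (edgeR; the smallest adjusted p among members was 0.0839, for Rpl8, and 10 had an unadjusted p below 0.05). With DESeq2 on the same genes no member passed either. All but 1 of the 42 log2 fold changes were below 0, against 52% of all genes tested, with a median of -0.31 over members and -0.02 over all genes; only Rpl19 was above 0, at 0.05 ± 0.14. In 5 members (Rplp0, Rpl8, Rpl12, Rpl18 and Rpl23) every HFHS library lay below every chow library, a pattern that 10.6% of all genes showed.

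This shift was carried mainly by 1 library. The log2 deviation from the chow mean had a median over the 42 members of -0.94 in HFHS library GATCA, where all 42 were below 0 and the range was -1.3 to -0.2. In HFHS library GCATA it was -0.26, with 38 members below 0, and in HFHS library CTAGA 0.04, with 18 below 0. Of 1260 other genes with a mean of at least 100 CPM, 2.7% lay at or below the members' median in GATCA and 16% in GCATA. The library GATCA was the lowest of the 6 monosome libraries for 40 of the 42 members, against 18.1% of all genes. Across all genes above 50 CPM, GATCA correlated with the other HFHS monosome libraries at r = 0.97 and 0.98, as these did with each other (0.98). No disome library with this barcode was analysed here, and what sets this library apart was not tested. Without GATCA, the median was -0.08 and 32 of 43 members were below 0; without CTAGA it was -0.51 and 3 members were called lower (Rplp1, Rpl37 and Rpl41).

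**Figure D4:**
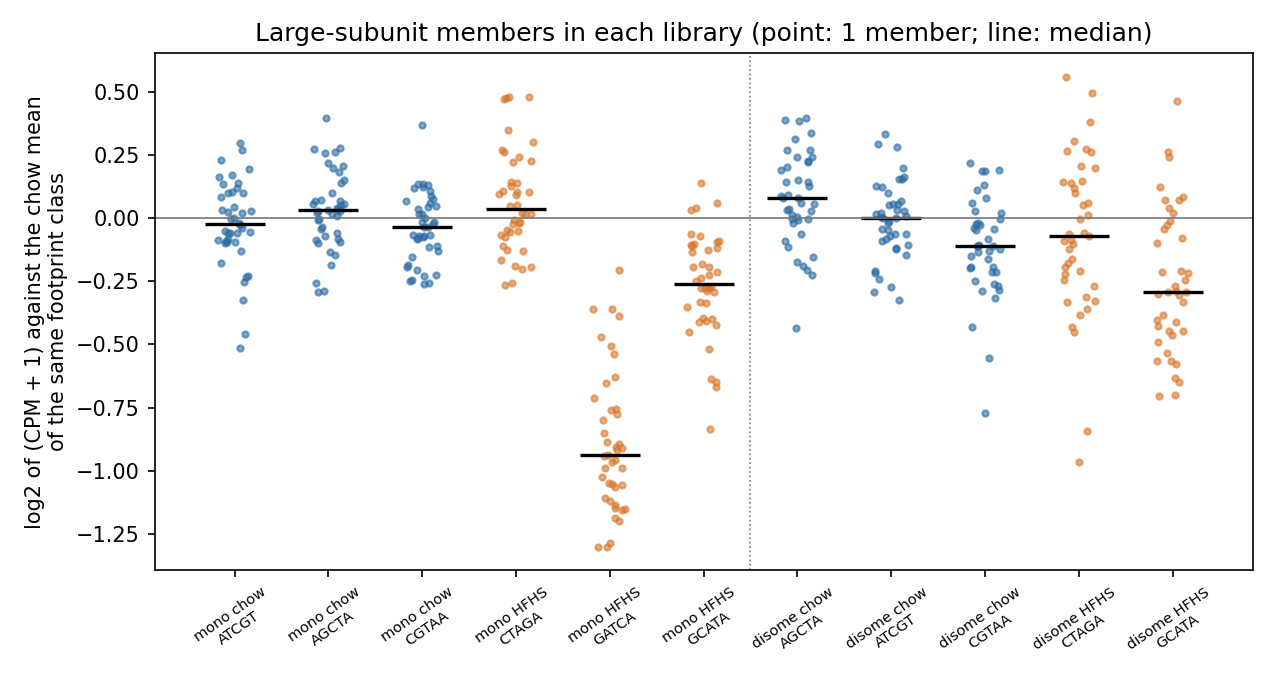
Log2 of (CPM + 1) against the chow mean of the same footprint class (y axis) for each member in each library (x axis; 42 members in monosomes left of the dotted line, 41 in disomes right of it); points are members, lines medians, blue chow and orange HFHS. The HFHS monosome library GATCA has a median of -0.94 and all of its points below 0, while CTAGA has a median of 0.04.

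The members with the smallest p in this comparison show the same arrangement. Rpl8 (ENSMUSG00000003970), which lies beside the peptidyl transferase centre, had 336, 309 and 339 CPM in the chow libraries and 274, 176 and 260.3 CPM in the HFHS libraries, with a log2 fold change of -0.47 ± 0.16. Rpl12 had 169, 156 and 125 CPM in chow and 125, 60.9 and 114 CPM in HFHS (-0.58 ± 0.22, adjusted p = 0.193, edgeR). In both genes GATCA was the lowest library, and the chow and HFHS values did not overlap, those of Rpl12 only narrowly. Rplp0 had 185, 251 and 191 CPM in chow and 183, 84.1 and 153 CPM in HFHS (-0.57 ± 0.24, adjusted p = 0.269, edgeR), and CTAGA lay just under the lowest chow value. Rpl41 had the lowest fold change, -0.6 ± 0.25, with 312, 541 and 485 CPM in chow and 398, 235 and 249 CPM in HFHS, which overlap. It was called lower without chow library ATCGT (-0.8, adjusted p = 0.0423) and without HFHS library CTAGA (-0.87, adjusted p = 0.013), and with no filter on low counts (-0.58, adjusted p = 0.00435); over 13 alternatives its adjusted p ran from 0.00435 to 0.551. Rpl14, at -0.51 ± 0.21, was also among the 5 members with the smallest p. Without GATCA the fold changes were -0.29 for Rpl8, -0.33 for Rpl12, -0.31 for Rplp0, -0.27 for Rpl14 and -0.46 for Rpl41, none of them called.

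By structural group, the median log2 fold change in monosomes was -0.48 over the 4 stalk proteins, -0.41 over 2 peptidyl transferase proteins, -0.31 over the 3 bridge proteins, -0.28 over the 3 tunnel wall proteins, -0.26 over 3 rim proteins and -0.15 over Rpl5 and Rpl11. Without GATCA the same medians were -0.26, -0.18, -0.13, -0.05, -0.04 and 0.06. These groups are small and none held a member that passed.

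In disomes the diet difference of these genes was smaller in median than in monosomes with all libraries (-0.1 against -0.31), but not when GATCA was left out of the monosomes (-0.08). The disome median itself was -0.28 without CTAGA. None of 41 members tested was called, where 2.96% of 2804 genes were (1.82% higher, 1.14% lower), the smallest adjusted p among members was 0.266 (edgeR), and 2 had an unadjusted p below 0.05; DESeq2 called none either. The median log2 fold change was -0.1 over members and -0.03 over all genes, with 31 members below 0 against 52.5% of all genes. In 9 members both HFHS libraries lay below all 3 chow libraries, which 13.9% of all genes showed, and in 3 they lay above, which 14.3% showed. Per library, the median deviation from the chow mean was -0.07 in CTAGA and -0.29 in GCATA.

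Rpl38 had 515, 601 and 427 CPM in the chow disome libraries and 409 and 315 CPM in the HFHS libraries, a log2 fold change of -0.49 ± 0.21 (adjusted p = 0.266, edgeR). Rplp1 had 269, 266 and 255 CPM in chow and 195 and 176 CPM in HFHS, a fold change of -0.5 ± 0.24 (adjusted p = 0.309, edgeR). In both genes the HFHS values lay below all chow values, for Rplp1 on only 34 to 67 counts per library. Rpl7 was at -0.33 ± 0.21, also without overlap, and Rpl6 at -0.35 ± 0.22. Rpl5 went up, with 269, 297 and 240 CPM in chow and 297 and 371 CPM in HFHS, 0.34 ± 0.21 (adjusted p = 0.521, edgeR), and its lower HFHS library was level with the highest chow library. Rpl19 and Rpl21, both rich in disomes, had fold changes of -0.04 ± 0.18 and 0.11 ± 0.2.

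The last comparison asked whether diet acted differently on disomes and monosomes of the same gene, by the difference of both diet effects in 1 model over all 11 libraries. No member passed among 43 tested, and neither did any of the 7236 genes tested (0%; 358 genes and 4 members had an unadjusted p below 0.05; edgeR, and no member passed with DESeq2). The difference, disomes minus monosomes, had a median of 0.25 over members and 0.01 over all genes, and 36 members were above 0, against 50.9% of all genes. The members with the smallest p were Rpl5 (0.67 ± 0.29), Rpl41 (0.67 ± 0.29), Rpl23 (0.61 ± 0.29), Rpl37 (0.71 ± 0.34) and Rpl8 (0.43 ± 0.27). Without monosome library GATCA the median was 0 and 22 of 43 members were below 0, so the positive median rested on that library. In that fit the 5 differences named were 0.37, 0.5, 0.31, 0.43 and 0.22, in the same order.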

How the data were processed

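Per the labels' protocols, each sample got its own barcode and molecular identifiers with the adaptor, and samples were pooled before rRNA depletion. Listed in the submitters' processing notes are cutadapt 3.5 and Bowtie2; genome build, annotation, strand setting and use of the identifiers are not stated there. The authors deposited raw, unnormalized counts per coding sequence (22019 lines, 8319 of them 0 in all libraries).

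These counts were tested in R 4.3.3 with edgeR 4.0.16: filterByExpr at a minimum count of 10, TMM, and the two-sided quasi-likelihood F-test with robust estimation. P-values were adjusted over all genes tested (Benjamini-Hochberg, threshold 0.05). Only the groups compared entered a fit, except the difference of diet effects (11 libraries). The SE is the size of the log2 value over the square root of F. The code was tested on simulated data. Library deviations used log2 of (CPM + 1). Alternatives were DESeq2 1.42.0, other scaling, filters and robustness, all libraries in 1 fit, the barcode as a block, and each library left out.

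Members and lists were chosen with earlier results of these data known. Members named passed the threshold without overlap of libraries (up to 10 per direction) or, where fewer than 5 did, had the 5 smallest p; members of the structural groups, and others called, were described whatever their values. Levels per coding length and other gene lists were not analysed here. The values of 1 member are not reported here, though counts and medians over members include it.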

Additional observations from a re-analysis of the deposited data

How the results depend on the processing

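The counts of called members and the medians were compared under other settings. Of these values, 109 stayed within 1.5 times or within the replicate spread of those reported, and 8 moved. A median counted as moved only beyond the largest SD, within a group, of the members' library medians. Where HFHS monosomes entered the fit, GATCA made that spread wide, so a median that stayed may still have shifted. With no filter on low counts, 3 members were called lower in HFHS monosomes, the median chow disome ratio was 0.13 and 3 members were called lower in HFHS disomes against monosomes. Members called lower in chow disomes, 5 as reported, numbered 3 with DESeq2, 3 with a minimum count of 50 and 2 with both AGCTA libraries left out; the minimum of 50 left 0 called lower in HFHS. The cause of these shifts was not tested.

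Leaving out each library in turn, members called lower in HFHS monosomes ran from 0 to 3 and the median from -0.51 to -0.08; the disome diet median ran from -0.28 to -0.06 and that of the difference of diet effects from 0 to 0.45. In chow disomes against monosomes, 13 to 14 members were called higher and 2 to 6 lower, with medians of 0.18 to 0.33. In HFHS, 5 to 24 were called higher and 0 to 4 lower, with medians of 0.32 to 0.74; the fewest called higher came without disome library CTAGA and the most without monosome library CTAGA.

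Column names carry a barcode and no replicate number. In chow, same-barcode monosome and disome libraries deviated together (r = 0.69 for ATCGT, 0.86 for AGCTA and 0.7 for CGTAA). Libraries ATCGT and CGTAA also did so across barcodes, at 0.56 both ways, while AGCTA against either ran from -0.76 to -0.71. In HFHS the same-barcode values were 0.09 for CTAGA and 0.29 for GCATA. With only 2 HFHS disome libraries their deviations mirror each other, so the HFHS values say little either way; disome library CTAGA correlated slightly better with monosome library GATCA (0.14). The labels do not say what a shared barcode means, and whether barcodes pair the samples was not settled. With the barcode as a replicate block, 22 members were called in chow, including all 20 reported. In HFHS 22 were called, 6 of them lower, with 13 of the 14 reported among them. No member was called for the difference of diet effects, whose median was 0.03. Barcode GATCA occurs in 1 library alone, so the block absorbs that library. The blocked fits of HFHS and of the difference are therefore not separate from those without GATCA (median difference 0). In HFHS the block also leaves little from which to estimate the spread. Of the 9 pairs of a structural group past the threshold, 9 were past it without GATCA and 0 with the classes swapped within barcodes, a replicate block whose smallest p is 0.0625 (exact permutation test); both were added after the values were seen.

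Depth limits the disome values: 3 counts correspond to 10.7 to 20.4 CPM in a disome library and to 1.86 to 3.77 CPM in a monosome library. Of the 14 HFHS calls, 4 held under every alternative run and 10 under those that kept both disome libraries and tested the gene. Leaving out 1 of the 2 leaves a lone library in that group, whereas in chow 2 remain.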
